A study of Oryza sativa with 4 samples.

Results

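Rice takes up iron through secreted phytosiderophores and through direct uptake of ferrous ions, and 9 genes of these routes were followed in polysomal RNA. They were taken by locus name as 3 nicotianamine synthases, the aminotransferase NAAT1, the synthase DMAS1, the transporters IRT1 and YSL15, and the helix-loop-helix regulators IRO2 and IRO3. The 9 loci had 14 assembled transcripts, out of 51250 annotated loci in the deposited table. The genes were chosen by locus name with earlier results of these libraries known, among them the FPKM of NAS1 and NAS2 in all 4 libraries, so the levels are given as a description with no test.

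Nicotianamine is made by joining molecules of S-adenosylmethionine. It binds iron and other metals inside the plant and is also the precursor of deoxymugineic acid, the phytosiderophore of rice. NAAT1 and DMAS1 carry out the later steps of that synthesis, and YSL15 brings the iron complex of deoxymugineic acid into the root. Many of these genes are known to be induced by iron deficiency in rice roots.

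The study grew the salt-sensitive genotype IR29 and the salt-tolerant landrace Pokkali (Pok) on Yoshida medium. Whole seedlings about 24 days old were harvested after 24 h with 150 mM NaCl or without added salt. Fractions of a sucrose gradient that held more than a pair of ribosomes were pooled, and their poly(A) RNA was sequenced, so the values describe mRNA loaded on polysomes (the translatome). Each of the 4 groups had 1 library, which pooled plants: equal RNA of 3 biological replicates was combined per treatment, as stated for total RNA. What a genotype or treatment did and what was peculiar to its 1 library cannot be told apart, so the text holds no test, SD or p-value. The values are FPKM, fragments scaled by transcript length and by the mapped reads of the library, as the authors deposited them. Root and shoot were not separated, so fewer cells of a type and less RNA per cell cannot be told apart.

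The low FPKM values of each library came in fixed steps, from which the worth of 1 read could be read. Relative to IR29 control, 1 read was worth 1.29 times as much FPKM in IR29 salt, 1.87 times in Pok control and 2.25 times in Pok salt, so IR29 control was the deepest library and Pok salt the shallowest. The number of annotated transcripts at 5 FPKM or more ranged from 8979 to 10595. Read numbers could be recovered for NAS1, NAS2 and YSL15. Intervals given with them are exact 95% intervals of counting error and do not cover differences between plants or libraries.

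NAS1 (Os03g19427.1) and NAS2 (Os03g19420.2) are neighbours on chromosome 3. In the MSU v6.1 assembly the NAS2 locus runs from 10925187 to 10926668 and the NAS1 locus from 10928201 to 10929613, with 1532 bases between them, and each held a single assembled transcript. The quantitative RT-PCR primers that the study lists for NAS1 are shown because this gene has the largest ratio between the salt libraries among the 9 genes. Their position and their fit to NAS2 were not checked. No bases are set in capitals.
NAS1 forward primer: tactacggcaactacgtcaacc
NAS1 reverse primer: cggtcgtagttgtcgaacacc

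NAS1 stood at 1.30 FPKM in IR29 control, 0.107 FPKM in IR29 salt, 0.905 FPKM in Pok control and 14.0 FPKM in Pok salt. The Pok salt library was far above the other 3, and IR29 salt was the lowest. These values corresponded to 94, 6, 35 and 450.5 reads in the same order. Under salt NAS1 was 15.5-fold higher in Pok (counting interval 10.96 to 22.5) and 12.2-fold lower in IR29 (5.39 to 34.0). Between the salt libraries the ratio of Pok to IR29 was 131 (59.7 to 359). Between the controls it was 0.696 (0.458 to 1.04), an interval that includes equality.

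NAS2 followed the same order of libraries. It stood at 0.825 FPKM in IR29 control, 0.185 FPKM in IR29 salt, 0.563 FPKM in Pok control and 10.7 FPKM in Pok salt, from 63, 11, 23 and 362.5 reads. Salt went with a 19.0-fold higher value in Pok (12.4 to 30.3) and a 4.45-fold lower value in IR29 (2.33 to 9.36). The Pok salt value was 57.6 times that of IR29 salt (31.8 to 116), while the controls had a ratio of 0.683 (0.404 to 1.12). For total RNA, which these libraries do not hold, the paper reports NAS1 and NAS2 as lower under salt in both genotypes. A polysomal level alone does not separate the amount of an mRNA from its loading.

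The NAS1 and NAS2 values came in steps of 0.502 and 0.498 of the 1-read step of transcripts of like span. Reads were therefore counted for these genes in steps of 0.5, and both ended on such a step in Pok salt. NAS1 and NAS2 are close paralogs, so the value of each is uncertain as far as reads fit both, and how reads were divided was not tested. Summed over both genes, the level was 2.13 FPKM in IR29 control, 0.292 FPKM in IR29 salt, 1.47 FPKM in Pok control and 24.7 FPKM in Pok salt. NAS1 was above NAS2 in 3 libraries, with ratios of 1.58 (IR29 control), 1.61 (Pok control) and 1.31 (Pok salt), and below it in IR29 salt, with a ratio of 0.577. The IR29 salt ratio rests on 6 reads of NAS1 and 11 of NAS2. Their counting intervals overlap there (0.0392 to 0.233 FPKM for NAS1, 0.0925 to 0.332 FPKM for NAS2), so no order is shown.

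NAS3 (Os07g48980.1) differed less between libraries. It stood at 20.7 FPKM in IR29 control, 13.2 FPKM in IR29 salt, 24.5 FPKM in Pok control and 25.7 FPKM in Pok salt, and was the highest of the 3 synthases in every library. It passed the 2-fold limit in no comparison, with a ratio of salt to control of 0.637 in IR29 and 1.05 in Pok, and of 1.95 between Pok salt and IR29 salt. Its assembled locus on chromosome 7, from 29322100 to 29340171, also holds transcripts of 2 other annotated loci.

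NAS3 made up 90.7% of the summed FPKM of the 3 synthases in IR29 control, 97.8% in IR29 salt and 94.3% in Pok control. In Pok salt NAS1 and NAS2 together reached 24.7 FPKM against 25.7 FPKM of NAS3. The summed level was 22.8 FPKM in IR29 control, 13.5 FPKM in IR29 salt, 26.0 FPKM in Pok control and 50.4 FPKM in Pok salt.

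**Figure D1:**
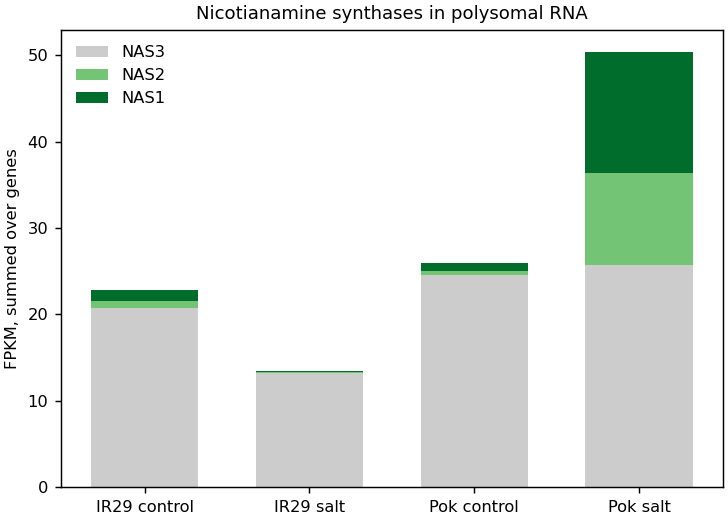
Stacked bars give the FPKM of NAS3 (grey), NAS2 (light green) and NAS1 (dark green) in each of the 4 polysomal libraries, 1 library per bar. NAS3 makes up 90.7% to 97.8% of the bar in 3 libraries, while in Pok salt NAS1 and NAS2 add 24.7 FPKM to its 25.7 FPKM.

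The enzymes that follow nicotianamine synthase were at similar levels in all libraries. NAAT1 (Os02g20360.1), the nicotianamine aminotransferase, is annotated in the table only as a tyrosine aminotransferase and lies on chromosome 2 from 11997090 to 12002629. It stood at 15.5 FPKM in IR29 control, 18.9 FPKM in IR29 salt, 18.8 FPKM in Pok control and 20.2 FPKM in Pok salt. Its second transcript, Os02g20360.2, was listed at 0 throughout. DMAS1 (Os03g13390.2), the deoxymugineic acid synthase of the aldo/keto reductase family, lies on chromosome 3 from 7227495 to 7230747 and stood at 9.79 FPKM in IR29 control, 8.23 FPKM in IR29 salt, 7.29 FPKM in Pok control and 10.4 FPKM in Pok salt. The ratio of salt to control was 1.22 in IR29 and 1.07 in Pok for NAAT1, and 0.841 in IR29 and 1.43 in Pok for DMAS1. Neither gene reached a 2-fold difference between any libraries compared.

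The transporter YSL15 (Os02g43410.1) was highest in Pok salt and low in every library. It lies on chromosome 2 from 26194144 to 26198851, and the table annotates it as an unclassified transposon protein. It stood at 0.125 FPKM in IR29 control, 0.0946 FPKM in IR29 salt, 0.0275 FPKM in Pok control and 1.59 FPKM in Pok salt. The smallest whole read numbers in these proportions were 17, 10, 2 and 96. The spliced length of the transcript is not in the files, so the true numbers may be a multiple of these. The ratio of salt to control was 57.8 in Pok (15.6 to 484), on only 2 control reads, and 0.757 in IR29 (0.310 to 1.75). Pok salt was 16.8 times IR29 salt (8.74 to 36.1), and IR29 control was 4.55 times Pok control (1.08 to 40.6).

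**Figure D2:**
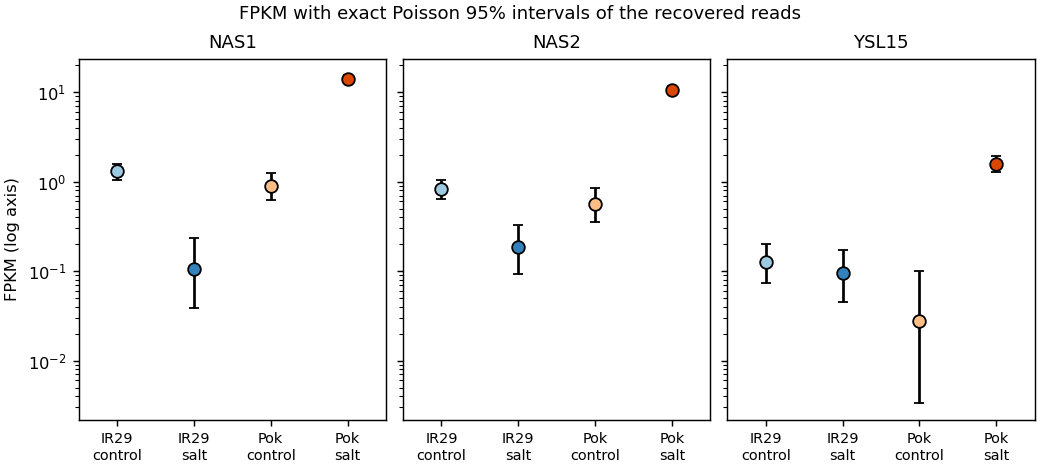
Points give the FPKM of NAS1, NAS2 and YSL15 in the 4 libraries on a log axis. Bars give the exact Poisson 95% intervals of the recovered reads, which cover counting error only and are approximate for NAS1 and NAS2. In each panel Pok salt lies above the intervals of the other 3 libraries.

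IRT1 (Os03g46470.1), the ferrous iron transporter, was under 1 FPKM in every library. It stood at 0.430 FPKM in IR29 control, 0.433 FPKM in IR29 salt, 0.228 FPKM in Pok control and 0.650 FPKM in Pok salt, and the ratio to control under salt was 1.01 for IR29 against 2.85 for Pok. Its assembled locus on chromosome 3, from 26275319 to 26285071, also holds a transcript of 1 other annotated locus, so reads were not recovered for it.

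Of the regulators, IRO2 is known to activate many genes of this set under iron deficiency, and IRO3 is known as a negative regulator of the same response. IRO2 (Os01g72370) had the lowest mean of the 9 genes over the 4 libraries, although YSL15 was lower in IR29 control. For its transcript Os01g72370.2, IR29 control had 0.169 FPKM and IR29 salt 0.0763 FPKM, and it was listed at 0 in both Pok libraries, Os01g72370.3 was listed at 0.109 FPKM in Pok control and at 0 elsewhere, and Os01g72370.1 was listed at 0 throughout. A transcript assembled on the opposite strand of the locus stood at 0.293 FPKM in IR29 control, 0.0368 FPKM in IR29 salt, 0.0369 FPKM in Pok control and 0.434 FPKM in Pok salt. No strand-specific protocol is stated, so reads of the gene and of the opposite strand cannot be told apart.

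IRO3 (Os03g26210), on chromosome 3 from 14998678 to 15000852, had a pair of transcripts that moved in opposite ways. Os03g26210.3 stood at 2.40 FPKM in IR29 control, 4.81 FPKM in IR29 salt, 3.499 FPKM in Pok control and 2.90 FPKM in Pok salt. Os03g26210.2 stood at 1.90 FPKM in IR29 control, 0.861 FPKM in IR29 salt, 1.57 FPKM in Pok control and 3.97 FPKM in Pok salt. The first was thus highest in IR29 salt and the second highest in Pok salt, and both stayed under 5 FPKM. Reads that fit both transcripts were divided between them by the authors' software, so the split is an estimate.

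**Figure D3:**
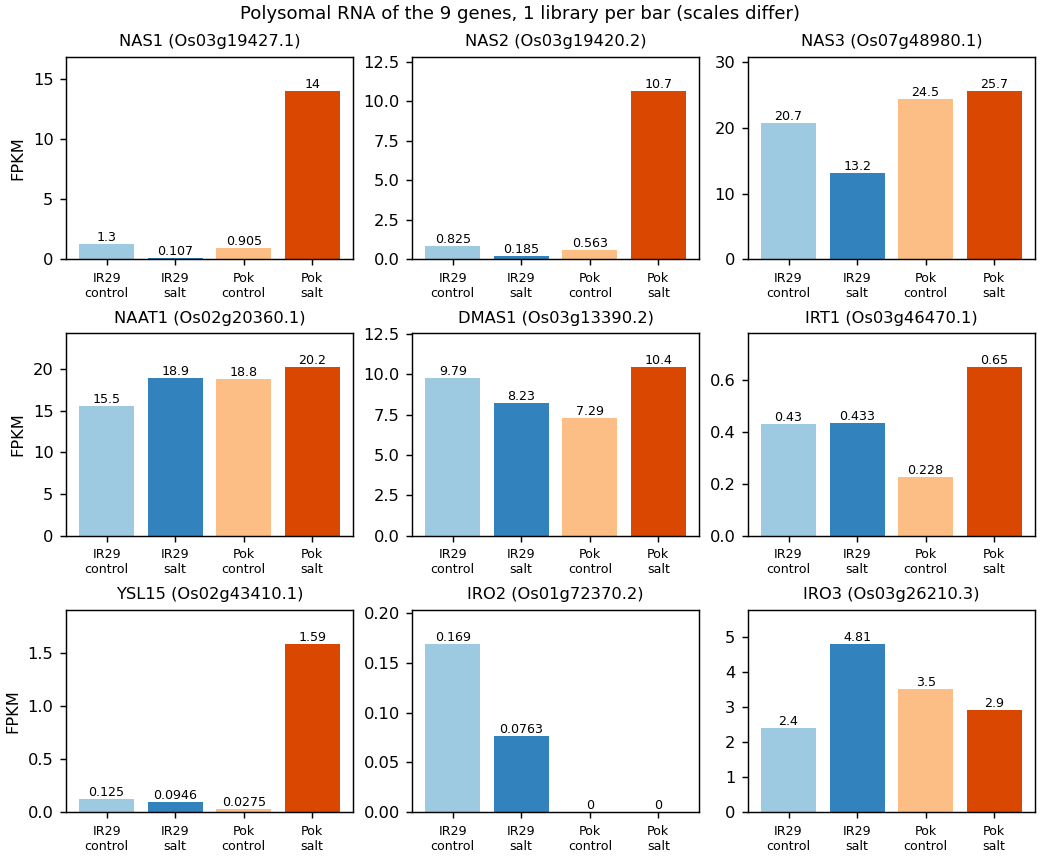
Bars give the FPKM of each of the 9 genes (annotated transcript with the highest mean) in the 4 polysomal libraries, 1 library per bar, with a scale of its own in each panel. NAS1, NAS2 and YSL15 stand out in Pok salt, at 14.0, 10.7 and 1.59 FPKM, while NAAT1 lies between 15.5 and 20.2 FPKM.

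For a count over the 9 genes, a transcript was considered when it reached 5 FPKM in a library of the pair, and was said to have risen or fallen when the FPKM differed at least 2-fold. Under salt in Pok, 5 of the 9 genes were considered, and 2 of them, NAS1 and NAS2, rose and 0 fell, while 15.7% of all 11551 annotated transcripts considered rose and 5.61% fell. That contrast was used to choose the genes, so nothing is read from the share. Under salt in IR29, 3 were considered and 0 passed in either direction, against 19.1% of 11119 transcripts that rose and 5.96% that fell. Pok control over IR29 control also had 3 genes considered and 0 past the limits, beside 11.0% higher and 6.62% lower among 10625 transcripts. In Pok salt over IR29 salt, 2 of 5 were higher (NAS1 and NAS2) and 0 lower, beside 9.87% higher and 6.76% lower among 11679 transcripts. NAS1 and NAS2 reached 5 FPKM only in Pok salt and so entered both comparisons with that library through their high value there, and nothing is read from this share either.

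Ratios were also taken as log2 of FPKM plus 1, which understates the differences of low genes. Over the genes considered, the median under salt was −0.22 for IR29 (3 genes) and 0.47 for Pok (5 genes). It was 0.23 for Pok control over IR29 control (3 genes) and 0.91 for Pok salt over IR29 salt (5 genes). All transcripts considered had medians of 0.31, 0.10, 0.32 and 0.10 in these comparisons. NAS1 and NAS2 were among the 5 genes only through their Pok salt values, so medians of 5 and of 3 genes are not compared. NAS3, NAAT1 and DMAS1, the 3 genes considered throughout, had log2 ratios of 0.07, 0.10 and 0.47 under salt in Pok. Between the salt libraries they had 0.91, 0.09 and 0.31. With the genes under the minimum included, the medians over all 9 were −0.12, 0.43, −0.22 and 0.31, so the value for the controls turned its sign. The log2 ratio of NAS1 was 2.98 in Pok and −1.06 in IR29, and that of NAS2 was 2.90 in Pok and −0.62 in IR29. By this ratio NAS1 and NAS2 were ranked 184 and 200 from the top of the 11551 transcripts in Pok, and 50 and 79 of the 11679 between the salt libraries. Both were chosen with these values known and entered the ranking only through their Pok salt level, so nothing is read from the ranks. As deposited, 7 of the 9 genes were highest in Pok salt, beside 32.7% of the 12578 annotated transcripts that reached 5 FPKM in some library. With the libraries scaled to the same upper quartile this count was 4 (NAS1, NAS2, YSL15 and IRT1), beside 14.6% of the transcripts, and NAS3 and DMAS1 were then highest in IR29 control and NAAT1 in IR29 salt. YSL15, IRT1, IRO2 and IRO3 were under 5 FPKM in every library as deposited, unlike the transcripts set beside them. NAS1 and NAS2 were chosen with their Pok salt values known, so nothing is read from these counts. The comparisons share libraries, and a high or low Pok salt library enters both of those with Pok salt.

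**Figure D4:**
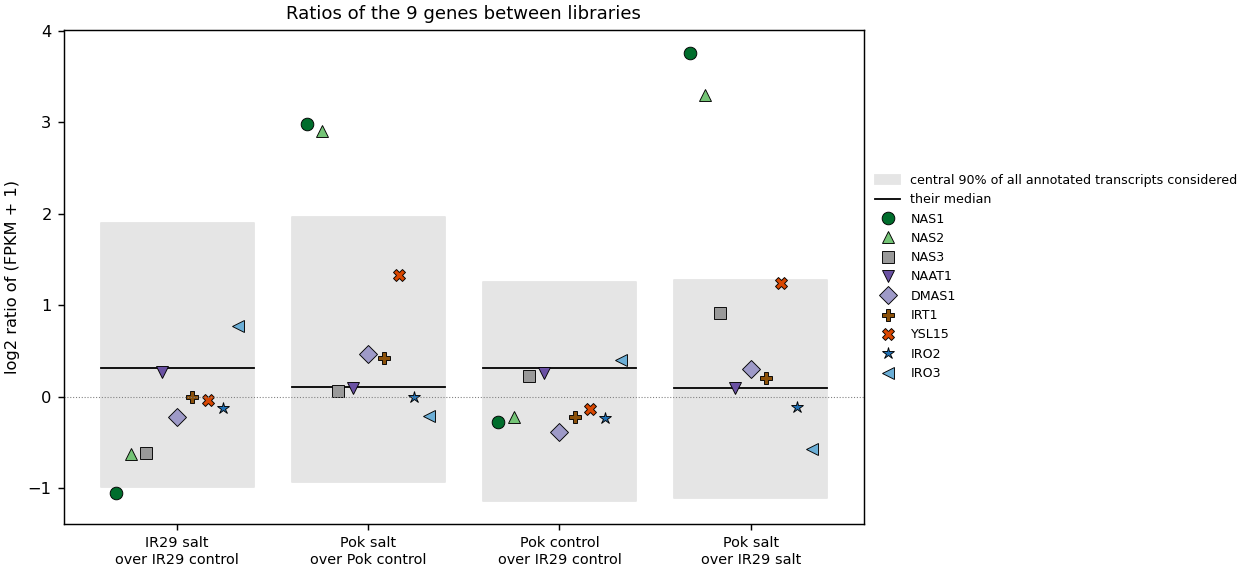
Symbols give the log2 ratio of FPKM plus 1 of the 9 genes in 4 comparisons of libraries, the grey boxes the central 90% of all annotated transcripts considered and the black lines their medians. NAS1 and NAS2 lie above the box in both comparisons with Pok salt, at 2.98 and 2.90 in Pok and at 3.76 and 3.30 between the salt libraries. They were considered there only through their Pok salt values, which were known when the genes were chosen.

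A list of transport genes taken as expressed mainly in roots was lower under salt in IR29 and higher in Pok by its median. Their root expression was not checked, as these libraries are of whole seedlings. Of 10 such genes listed, 9 were in the table, none of them among the 9 iron genes, and none was at 0 in any library. In IR29, 7 of 9 fell and 0 rose under salt, beside 5.96% of all transcripts considered that fell, with a median log2 ratio of −1.66 over the 9 genes. Of the 6 considered in Pok, 3 rose and 0 fell, beside 15.7% of all that rose, and the median over the 9 genes was 0.73. Between the controls, 6 of the 9 were lower in Pok and 1, the aquaporin Os06g22960.1, was higher, beside 6.62% lower and 11.0% higher among all transcripts considered. The median over the 9 genes was −1.28 there. Their summed level was 239.7 FPKM in IR29 control, 118.6 FPKM in IR29 salt, 237.9 FPKM in Pok control and 363 FPKM in Pok salt. The near-equal sums of the controls hold Os06g22960.1, at 46.1 FPKM in IR29 control and 149.3 FPKM in Pok control. The aquaporin Os04g44060.1 stood at 58.8 FPKM in IR29 control, 21.7 FPKM in IR29 salt, 32.5 FPKM in Pok control and 132 FPKM in Pok salt. The ammonium transporter Os02g40730.1 stood at 10.1 FPKM in IR29 control, 6.85 FPKM in IR29 salt, 2.37 FPKM in Pok control and 18.6 FPKM in Pok salt. The transporter Os02g02170.1 was 15.4-fold lower under salt in IR29, from 6.34 to 0.411 FPKM, a ratio of the size seen for NAS1 there. The aquaporin Os06g22960.1 went the other way in IR29, with 62.7 FPKM under salt. The part of root RNA in the NAS1, NAS2 and YSL15 values was not tested.

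Shoot genes, the chlorophyll A-B binding proteins and the Rubisco small subunits, had a median log2 ratio of −1.16 in IR29 and −0.42 in Pok. Of 18 such genes, 15 were considered in IR29, where 12 fell and 0 rose, beside 5.96% of all transcripts considered that fell. In Pok 16 were considered, and 2 fell and 0 rose, beside 5.61% of all that fell. Their summed level was 4854 FPKM in IR29 control, 1180 FPKM in IR29 salt, 6098 FPKM in Pok control and 3712 FPKM in Pok salt, and between 1 and 2 of the 18 were listed at 0 in a library. The Pok sums hold Os08g33820.1, at 769 FPKM in Pok control and 693 FPKM in Pok salt. It was listed at 0 in both IR29 libraries, which may be failed estimates. Both lists were therefore lower in IR29 salt than in IR29 control.

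Genes that supply or recycle S-adenosylmethionine, the substrate of nicotianamine synthase, did not follow NAS1 and NAS2. Of the 11 found in the table, all were considered, and in Pok 0 rose and 0 fell under salt (median log2 ratio 0.08). Of all transcripts considered in Pok, 15.7% rose and 5.61% fell. In IR29, 2 of 11 rose and 0 fell, a share close to the 19.1% of all transcripts considered that rose (median log2 ratio 0.62, beside 0.31 over all). The dioxygenase Os10g28350.1, an enzyme of methionine recycling, rose from 5.27 to 29.1 FPKM in IR29 and was 9.73 FPKM in Pok control and 10.4 FPKM in Pok salt. The S-adenosylmethionine synthetase Os05g04510.1 rose from 84.6 to 184.8 FPKM in IR29 and was 194.0 FPKM in Pok control and 166.6 FPKM in Pok salt. A second annotated transcript of the same gene, Os05g04510.2, was listed at 175.8 FPKM in IR29 control, 5.33 FPKM in IR29 salt and 0 in both Pok libraries, and the sum of both went from 260.4 to 190.1 FPKM, which leaves 1 of 11 genes risen when transcripts are summed.

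Ferritins, which store iron in plastids, were lowest in IR29 control. Os11g01530.1 stood at 74.4 FPKM in IR29 control, 165.1 FPKM in IR29 salt, 154.5 FPKM in Pok control and 148.8 FPKM in Pok salt, and rose in IR29. Os12g01530.2 stood at 54.7 FPKM in IR29 control, 108.9 FPKM in IR29 salt, 98.0 FPKM in Pok control and 95.9 FPKM in Pok salt and did not reach the 2-fold limit by itself. Another transcript of that gene, Os12g01530.3, stood at 23.5 FPKM in IR29 control, 78.2 FPKM in IR29 salt, 68.3 FPKM in Pok control and 72.5 FPKM in Pok salt, and the sum over its transcripts was 2.41-fold higher under salt in IR29. The storage list also held a pair of genes annotated as integral membrane proteins, which stayed within the limits. Of all 4 genes, 1 rose and 0 fell in IR29, beside 19.1% of all transcripts considered that rose, and 2 rose with transcripts summed, while 0 passed in Pok either way.

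**Figure D5:**
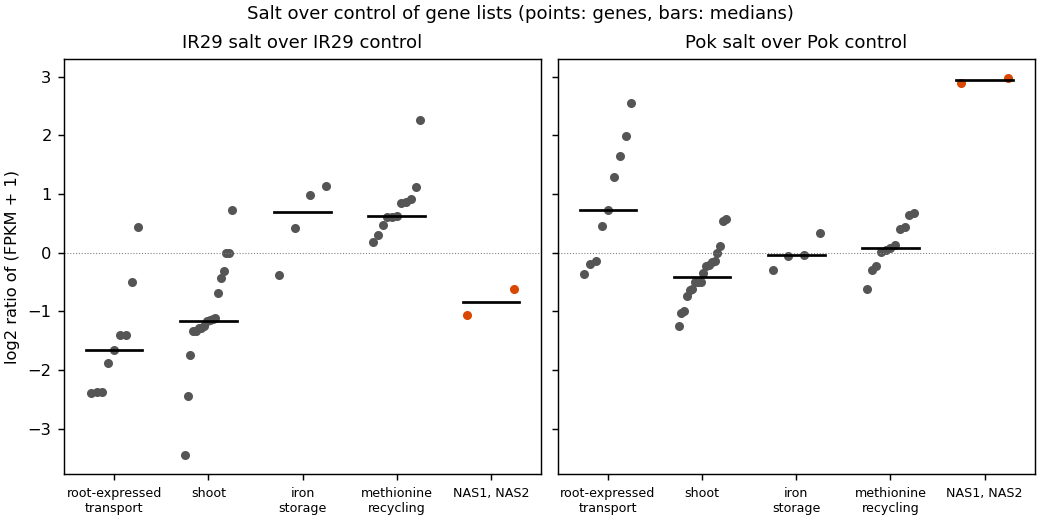
Points give the log2 ratio of FPKM plus 1, salt over control, of each gene in 4 lists and of NAS1 and NAS2, for IR29 (left) and Pok (right), and black bars the medians. The root-expressed list has a median of −1.66 in IR29 and 0.73 in Pok, and NAS1 and NAS2 lie at −1.06 and −0.62 in IR29 and at 2.98 and 2.90 in Pok.

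Among 15 further genes for transport of iron, nicotianamine and phytosiderophores, 6 were considered in each comparison. In IR29, 0 rose and 1 fell, beside 5.96% of all transcripts considered that fell. The gene that fell was the ferric-chelate reductase Os04g36720.1, which reduces ferric iron. It stood at 62.2 FPKM in IR29 control, 20.4 FPKM in IR29 salt, 41.1 FPKM in Pok control and 44.5 FPKM in Pok salt. In Pok, 1 of 6 rose and 0 fell, beside the 15.7% of all transcripts considered that rose. It was the ABC transporter Os06g48060.1, at 8.06 FPKM in IR29 control, 5.998 FPKM in IR29 salt, 3.39 FPKM in Pok control and 16.3 FPKM in Pok salt. Pok salt was also its highest library. With transcripts summed, 7 genes were considered in Pok, and 2 rose and 0 fell. They were this ABC transporter and the MATE efflux protein Os03g11734, which went from 1.85 to 5.32 FPKM. The rise of the latter rests on Os03g11734.1, listed at 0 in Pok control and at 3.32 FPKM in Pok salt. Its other transcript, Os03g11734.2, went from 1.85 to 2.00 FPKM. With transcripts summed, the metal transporter Os06g46310 was lower in Pok salt (0 FPKM) than in IR29 salt (7.57 FPKM), and stood at 3.30 FPKM in Pok control. The zeros of both genes may be failed estimates. The metal transporter Os07g15370.1, annotated as Nramp6, stood at 11.5 FPKM in IR29 control, 6.23 FPKM in IR29 salt, 21.3 FPKM in Pok control and 11.6 FPKM in Pok salt, lower under salt in both genotypes but within the 2-fold limit. The metal cation transporter Os03g46454.1 was listed at 0 in all 4 libraries. Of 7 transcription factors and ubiquitin ligases listed as iron regulators, 5 were considered, and 0 rose or fell under salt in either genotype. The B3 domain protein Os08g01090.1 was higher in Pok control (15.6 FPKM) than in IR29 control (7.04 FPKM), and the salt libraries had 13.8 FPKM for IR29 and 18.3 FPKM for Pok, but the difference between the controls was under 2-fold with its transcripts summed.

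The transcripts most like NAS1 and NAS2 were found by the Euclidean distance between log2 values of FPKM plus 1, each centred on its mean over the 4 libraries, among 9543 loci with a specific annotation. Of the 8 nearest, 6 were listed at 0 in 3 libraries and between 6.14 and 10.4 FPKM in Pok salt, among them the response regulator Os11g05930.2 (distance 0.610), and such zeros may be failed estimates. The nearest above 0 in all libraries was the CREG1 precursor Os06g13100.1 (distance 0.623), at 1.89 FPKM in IR29 control, 1.89 FPKM in IR29 salt, 2.22 FPKM in Pok control and 20.3 FPKM in Pok salt. Of the other iron genes, YSL15 was the nearest, at 1.67, and the rest lay between 2.30 and 3.04. For NAS3 the nearest was the high light inducible protein Os01g40710.1 (distance 0.0207), at 21.9 FPKM in IR29 control, 13.8 FPKM in IR29 salt, 26.1 FPKM in Pok control and 27.3 FPKM in Pok salt, and the heavy metal-associated domain protein Os03g64340.1 (distance 0.120) was also among its 8 nearest. With 4 points per transcript, such likeness is a description only.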

How the data were processed

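Polysomal poly(A) RNA of 4 seedling groups was sequenced, 1 library per group. Per the study's methods, the authors removed low-scored reads among reads of 50 to 51 nt, used TopHat with the MSU v6.1 rice assembly as target, built transcripts in Cufflinks, joined them across libraries by Cuffmerge, set them against the annotation by Cuffcompare and obtained levels from Cuffdiff (versions not given in the sources used here). The deposited values are FPKM per assembled transcript, without counts. Locus starts were taken as 0-based, and 1 was added.

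The members and gene lists were chosen with earlier results of these data known. Each locus was represented by its annotated transcript of highest mean, and every transcript of the 9 loci was given. A 2-fold difference with at least 5 FPKM in a library of the pair was counted, following the size limits of the study's methods without their FDR. Printed log2 ratios have a pseudocount of 1 FPKM. Read numbers were recovered from the steps of the FPKM values where all 4 values came within 0.03 of whole numbers, for transcripts alone in their locus. Of 566 transcripts with whole steps and a span of 1200 to 1700 bases, 117 had the 1-read step and 44 a step of 0.5 read. Counting intervals are exact (Poisson for a value, Clopper-Pearson for a ratio) at 95% for whole reads. Steps of 0.5 read were rounded down, so the intervals of NAS1 and NAS2 are approximate. Genes named outside the 9 were those past the size limits (at most 4 per list and comparison) and the 8 nearest in pattern by a fixed distance. Also named were Os07g15370.1, Os03g46454.1, Os03g11734, Os06g46310, Os12g01530.2 and Os05g04510.2, chosen after their values were seen. RefSeq names matched 7 of the 9 genes by name and chromosome, and DMAS1 and IRO2 are named from general knowledge. The RefSeq table gives the name OsIRO2 to the chromosome 3 gene that also carries IRO3, which conflicts with the name used here for Os01g72370. Of the list loci not found among annotated transcripts, none was replaced. Promoter and protein sequences were not analysed here. The steps were tested on simulated data. Python 3.11.15, numpy 2.4.6, pandas 2.3.3 and scipy 1.17.1 were used. Alternatives were other pseudocounts, minimums and fold limits, centring, upper-quartile scaling and sums over transcripts.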

Additional observations from a re-analysis of the deposited data

Results flagged for a closer look

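The NAS1 values under salt went opposite ways in the genotypes, and the log2 ratio was 4.03 higher in Pok than in IR29. For NAS2 the difference was 3.52. In both IR29 libraries NAS1 and NAS2 stayed under 5 FPKM, so their falls there were not counted as changes. For YSL15 the difference was 1.37, but its IR29 ratio of 0.757 had a counting interval of 0.310 to 1.75, so no direction is shown there, and it stayed under 5 FPKM in every library. With 1 library per group these differences between genotypes were not tested.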

How the results depend on the processing

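Of 80 counts of genes higher or lower under 10 alternatives, 72 were within 1.5 times the reported count. Pseudocounts do not enter these counts, and a stricter minimum or fold limit cannot raise a count of 0. Part of this sameness was therefore fixed in advance, and nothing is read from the 72. With a minimum of 1 FPKM, 1 gene was higher (IRO3) and 1 lower (NAS1) under salt in IR29, and YSL15 joined NAS1 and NAS2 as higher under salt in Pok and in Pok salt over IR29 salt (3 genes each). With no minimum, 1 was higher (IRO3) and 3 were lower (NAS1, NAS2 and IRO2) under salt in IR29, 4 were higher under salt in Pok (NAS1, NAS2, IRT1 and YSL15), 3 were higher in Pok salt than in IR29 salt (NAS1, NAS2 and YSL15), 2 were lower in Pok control than in IR29 control (YSL15 and IRO2), and 1 was lower in Pok salt than in IR29 salt (IRO2). With upper-quartile scaling 1 gene, IRO3, was lower in Pok salt than in IR29 salt (log2 ratio −0.83), but with its transcripts summed the ratio was 0.24, against −0.57 as reported. Under salt the log2 ratio of IRO3 was 0.77 in IR29 and −0.21 in Pok as reported. With its transcripts summed it was 0.33 in IR29 and 0.37 in Pok. Of 360 log2 ratios of single genes, 113 moved by over 0.1 or changed their call. Of these 360, 40 belong to NAS1 and NAS2 where called, and 15 of the other 320 changed sign (in IRO2, IRO3, IRT1, NAAT1 and NAS3). Of the 40, 0 changed sign, but limits and pseudocounts cannot turn a sign and the scalings were small beside these ratios. Nothing is therefore read from that 0. The highest library under upper-quartile scaling and the list counts with summed transcripts were added after seeing the data. The groups hold no numbered replicates to pair, and a salt effect with the genotypes as blocks, which leaves 1 residual degree of freedom, was not run. No replicate could be left out. Reads of the low genes limit precision: NAS1 rests on 6 reads in IR29 salt and YSL15 on 2 reads in Pok control.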
